A study of Mus musculus with 3 samples.

Results

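Nucleosome arrays, here runs of 5 or more neighbouring nucleosome positions whose centres follow each other at distances that all lie from 160 to 220 bp, were located in mouse fetal liver erythroblasts on culture days 0, 1 and 2. Positions were sorted along each of the 19 autosomes and every maximal run that met this rule was taken. The rule found 8380 arrays among 3689577 listed positions on day 0, 10177 among 2967550 on day 1 and 9263 among 4382151 on day 2. Arrays held 45027, 55438 and 49843 positions, which is 1.22%, 1.87% and 1.14% of the 3 lists. Arrays were chosen by the measured distances between listed centres, so their number and distances follow from the rule and are given as a description. Summit value, fuzziness, place in the genome and recurrence between days were not part of it. The local density of positions is tied to the rule, because an array needs near neighbours.

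Chromatin was cut with micrococcal nuclease, an enzyme that digests the DNA between nucleosomes, and the DNA of single nucleosomes was sequenced. The cells were Ter119-negative erythroblasts, precursors of red cells that do not yet carry this late erythroid surface protein, from the livers of 6 fetuses. The labels give the same medium for all 3 groups, IMDM with 10% fetal bovine serum, 1% bovine serum albumin, insulin and 2 U/ml erythropoietin, the hormone that red cell precursors need, and set the groups apart by day alone. Whether the days came from 1 culture is not stated. There was 1 library per day, so no difference between days has a replicate check, no test between days was made, and the culture day and the library cannot be told apart. Neither fetal age nor strain is stated in the labels, and the cell type could not be checked against markers because nucleosome positions do not measure expression.

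A nucleosome is a stretch of DNA wound around a core of histone proteins, and the linker DNA between neighbours can be bound by linker histones. Remodelling enzymes of the ISWI and CHD families space nucleosomes evenly, and active genes are known to carry rows of nucleosomes that start at a fixed distance from the start site of transcription. Erythroblasts condense their chromatin before they expel the nucleus. A deposited position is a place where many cells had a nucleosome, so an array in these lists is a row of averaged positions and not a row seen on 1 DNA molecule.

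The 3 libraries differed in depth and listing. Summit values, the authors' smoothed and scaled coverage at a centre, lay on steps of 0.762, 0.324 and 0.626, which gives relative depths of 1, 2.36 and 1.22 if 1 step is 1 unit of coverage. The deepest library by this measure, day 1, had the fewest positions and the largest share in arrays. Centres lay on a 5 bp grid for 80.8%, 91.2% and 80.4% of positions. The part of depth, listing and grid in differences between days was not tested.

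The promoters crossed by an array on every day show what such rows look like at sequence level. Of 20085 promoter windows of 300 bases, an array crossed 324 on day 0, 534 on day 1 and 474 on day 2, and 3 were crossed on all days. These belong to Tmem203, which encodes a membrane protein of the endoplasmic reticulum, Ankrd13a, which encodes a ubiquitin-binding ankyrin repeat protein, and Cplx3, which encodes a complexin of vesicle release. A window counted as crossed if the footprint of an array reached it. The day 1 array at Tmem203, which ended at 25255191 bp, and the day 2 array at Ankrd13a, which ended at 114774739 bp, reached theirs by a footprint edge alone, with no centre inside. The 250 bases before each start site are given from RefSeq (GRCm38.p6, the coordinates of mm10), 5′ to 3′ along the gene's strand, with the bases under the 140 bp footprints of day 0 array positions in capitals. The windows are chr2:25255189-25255438 (plus strand) for Tmem203, chr5:114774698-114774947 (plus strand) for Ankrd13a and chr9:57606282-57606531 (minus strand) for Cplx3.
Tmem203: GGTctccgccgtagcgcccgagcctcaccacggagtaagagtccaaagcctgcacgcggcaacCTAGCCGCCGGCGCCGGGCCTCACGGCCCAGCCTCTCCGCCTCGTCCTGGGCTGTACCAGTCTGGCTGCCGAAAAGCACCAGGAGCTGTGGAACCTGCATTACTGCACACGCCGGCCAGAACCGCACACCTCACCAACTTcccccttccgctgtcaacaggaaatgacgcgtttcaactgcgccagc
Ankrd13a: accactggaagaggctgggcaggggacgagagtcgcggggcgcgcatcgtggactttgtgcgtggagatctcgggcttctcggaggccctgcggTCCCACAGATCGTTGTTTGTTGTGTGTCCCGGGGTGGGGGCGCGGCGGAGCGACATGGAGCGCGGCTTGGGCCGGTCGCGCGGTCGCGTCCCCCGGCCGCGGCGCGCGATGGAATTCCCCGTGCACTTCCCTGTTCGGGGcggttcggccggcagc
Cplx3: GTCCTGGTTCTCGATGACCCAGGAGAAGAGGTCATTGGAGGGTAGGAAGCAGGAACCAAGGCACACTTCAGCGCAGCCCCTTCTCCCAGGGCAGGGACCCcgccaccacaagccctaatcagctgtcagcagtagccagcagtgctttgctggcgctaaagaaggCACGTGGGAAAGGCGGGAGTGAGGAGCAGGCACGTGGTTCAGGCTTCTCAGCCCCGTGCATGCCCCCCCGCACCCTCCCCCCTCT
The footprints covered 143 of the 250 bases at Tmem203, 140 at Ankrd13a and 185 at Cplx3, and GC made up 65.2%, 71.2% and 62.8% of the bases.

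At these promoters the rows were alike in part between days. At Tmem203, array centres nearest the start site lay at -118 and 102 bp on day 0 and at -128 and 92 bp on day 2, where minus is upstream. The day 1 array there ended at -318 bp, a place that was also a day 0 centre and lay 20 bp from the day 2 centre at -338 bp. At Cplx3 the centres next to the start site lay at -220 and -15 bp on day 0, at -210 and 10 bp on day 1 and at -220 and -10 bp on day 2. Each of these Cplx3 pairs differed between days by no more than 25 bp. At Ankrd13a the arrays covered different stretches, since the day 0 array ran from -87 to 646 bp while those of day 1 and day 2 ran from -872 to -112 bp and from -1022 to -279 bp. Day 1 and day 2 centres at Ankrd13a shared the place at -657 bp.

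Arrays were mostly short. Arrays of exactly 5 positions made up 6141, 7067 and 6731 of them, or 73.3%, 69.4% and 72.7%, on days 0, 1 and 2. Arrays of 8 or more positions numbered 172, 325 and 210, and the longest held 14, 13 and 12 positions. The median array spanned 775, 773 and 775 bp from first to last centre, and all arrays together spanned 0.282%, 0.346% and 0.312% of the autosomes. Just outside the rule lay 24223, 24548 and 26110 runs of 4 positions. Within it, the share of positions in arrays was lowest on chromosome 18 (0.708%, 1.17% and 0.783%) and highest on chromosome 11 (1.84%, 2.54% and 1.78%) on each day.

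More arrays were listed than the same distances gave in random order along a chromosome. After the neighbour distances were shuffled within each chromosome, 20 shuffles gave on average 6014 ± 78, 6563 ± 74 and 5865 ± 69 arrays for days 0, 1 and 2 (SD over shuffles). Listed arrays were 1.39 ± 0.097, 1.55 ± 0.105 and 1.58 ± 0.116 times as many (SD over 19 autosomes), and the ratio was above 1 on all 19 autosomes on each day. It lay between 1.25 and 1.59 on day 0, between 1.33 and 1.75 on day 1 and between 1.36 and 1.80 on day 2. For arrays of 8 or more positions the ratios were 2.59, 3.71 and 4.09.

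Most of this excess was not found when distances were shuffled only among near neighbours, which keeps the local density of positions. Within blocks of 1000 successive distances the ratios of listed to shuffled arrays were 1.01 ± 0.048, 1.15 ± 0.051 and 1.12 ± 0.043 (SD over 19 autosomes). Within blocks of 100 they were 0.971 ± 0.050, 1.04 ± 0.049 and 1.03 ± 0.043. On day 0 there were thus fewer arrays than after the block shuffle, 8380 against 8627 ± 68, and the ratio was above 1 on 5 of 19 autosomes. On days 1 and 2 it was above 1 on 16 of 19 autosomes, at 10177 arrays against 9752 ± 71 and 9263 against 8976 ± 84. Arrays of 8 or more positions gave 0.969, 1.24 and 1.18. The rule's ratio thus depended on the distance over which the shuffle ran, and beside near neighbours the listed number differed from the shuffled one by less than 5% on every day.

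**Figure D1:**
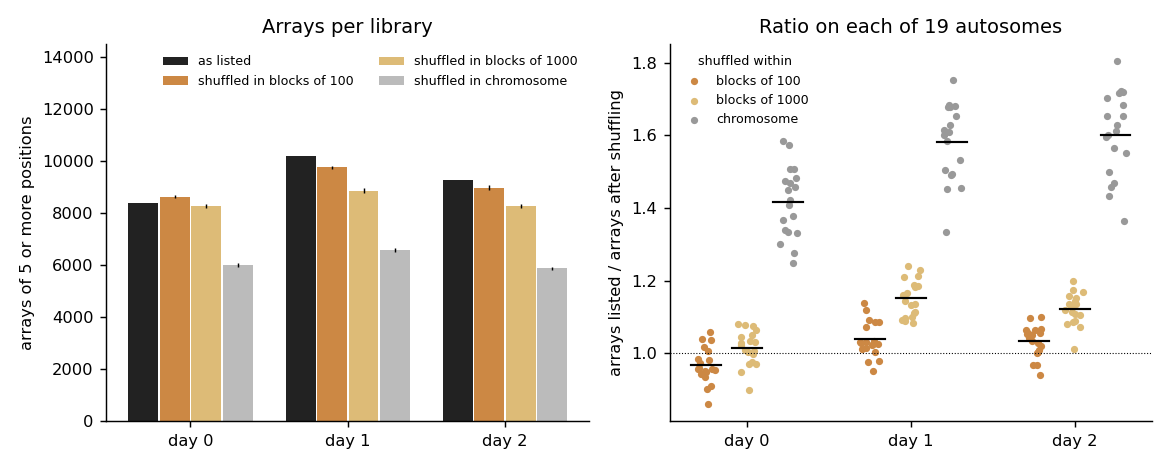
Left: number of arrays per day as listed and as the mean of 20 shuffles of the neighbour distances within blocks of 100, blocks of 1000 or whole chromosomes (bars from 0, error bars are the SD over shuffles). Right: listed arrays divided by shuffled arrays, 1 point for each of the 19 autosomes, with the mean over autosomes as a black line. The whole-chromosome ratios sit between 1.25 and 1.80, while those within blocks of 100 sit between 0.861 and 1.14.

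The length distribution showed the same. In every library the number of arrays fell steeply with each added position, and from 5 to 10 positions the listed numbers lay nearer to those after shuffling in blocks of 100 than to those after shuffling in whole chromosomes. The whole-chromosome numbers lay below both at each of these lengths. Arrays of 9 positions, for example, numbered 39, 78 and 58 as listed, against 36.3, 59.1 and 35.7 after shuffling in blocks of 100. Beyond 10 positions a library held at most 8 arrays, so these lengths rest on single arrays.

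**Figure D2:**
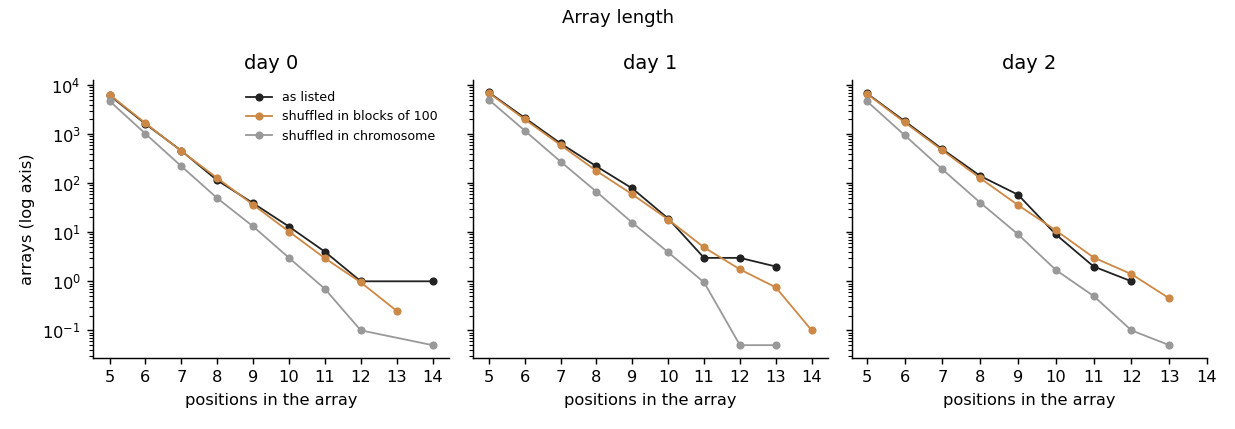
Number of arrays (log axis) against the number of positions in the array on days 0, 1 and 2, as listed (black), and as the mean of 20 shuffles in blocks of 100 (orange) and in whole chromosomes (grey). Arrays of 5 positions numbered 6141, 7067 and 6731, and the listed line stays near the orange line while the grey line lies below them.

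Arrays lay where positions were listed densely. In 100 kb bins with under 100 positions, 0.0387%, 0.125% and 0.0663% of positions belonged to an array on days 0, 1 and 2. In bins with 400 or more positions the shares were 3.0% (exact Clopper-Pearson 95% interval 2.96 to 3.04%), 4.21% (4.16 to 4.26%) and 3.14% (3.10 to 3.18%). These densest bins held 45.9%, 48.3% and 39.4% of the arrays but 18.9%, 21.7% and 14.4% of all positions. At each density the day 1 share was the highest. Intervals here and below cover counting error only and treat positions as independent, although array positions come in runs.

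The distances inside arrays did not stand apart from other distances within the bounds. Their median was 190, 187 and 190 bp and their mean 189.06, 187.93 and 189.13 bp, with an SD of 18.4, 18.4 and 18.3 bp. Distances from 160 to 220 bp outside arrays averaged 189.55, 188.18 and 189.93 bp with an SD of 18.4, 18.5 and 18.4 bp. The medians over single autosomes ran from 187 to 195 bp on day 0, from 185 to 190 bp on day 1 and from 189 to 190 bp on day 2. The difference of 3 bp between the median of day 1 and those of the other days was smaller than the 5 bp grid on which most centres lie. Of all neighbour distances, 21.2%, 23.0% and 20.1% lay within the bounds. At the lower bound, 66092, 67781 and 72762 distances of 160 to 164 bp lay just inside and 64142, 52004 and 70377 of 155 to 159 bp just outside. At the upper bound, 61323, 48956 and 72067 of 216 to 220 bp lay inside and 58839, 36079 and 68746 of 221 to 225 bp outside. Distances were thus frequent on both sides of each bound.

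Successive distances of an array were close to independent of each other. Their Pearson correlation was 0.013 over 28267 pairs on day 0, -0.008 over 35084 on day 1 and -0.003 over 31317 on day 2, where pairs share a centre and a library. A row paced by 1 fixed spacing would keep its register over several steps, so the spread of the distance from the first centre was taken over 1 to 4 steps. Its SD went up with each step, through 18.6, 26.3, 32.6 and 37.5 bp on day 0, through 18.6, 26.0, 31.7 and 36.3 bp on day 1 and through 18.3, 26.0, 31.8 and 36.7 bp on day 2. After shuffling in blocks of 100 the SD over 4 steps was 36.9, 36.7 and 36.9 bp, and over all steps and days the listed SD was between 0.990 and 1.02 times the shuffled one. The median SD of the distances within an array was 17.80, 17.96 and 17.80 bp as listed, against 17.83, 17.82 and 17.89 bp after shuffling. The label of evenly spaced arrays therefore holds only as far as the rule's bounds, and within arrays the spacing was no more even than in shuffled runs that met the same rule.

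**Figure D3:**
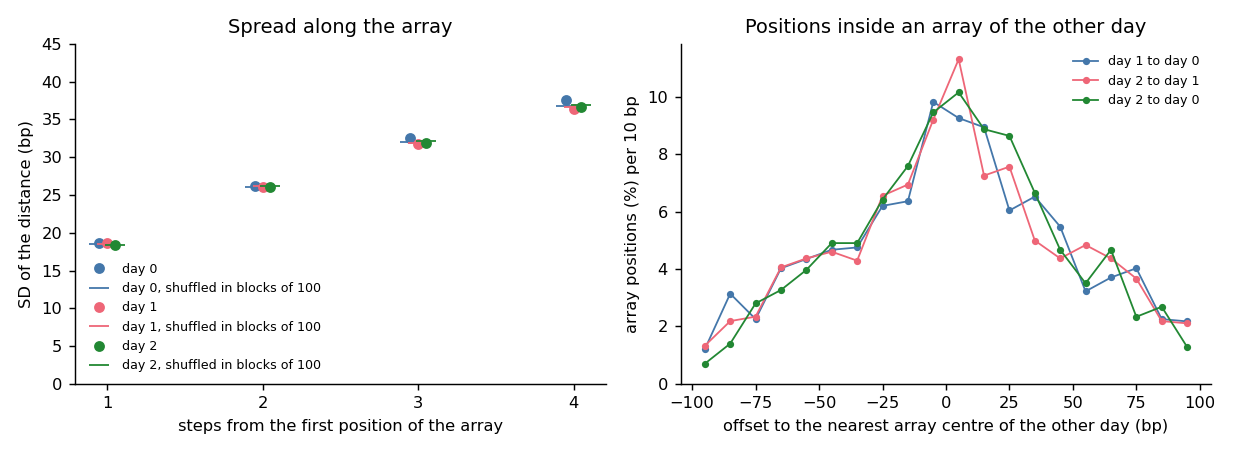
Left: SD of the distance from the first centre of an array (bp) over 1 to 4 steps, for each day as listed (points) and after shuffling in blocks of 100 (dashes). Right: array positions that lie inside an array of another day, by their offset to its nearest centre in steps of 10 bp, as percent of such positions. The points fall on the dashes up to 37.5 bp, and offsets are most frequent near 0.

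Single arrays could be very even or uneven. The mean distance of an array ranged, for the middle 90% of arrays, from 174.0 to 204.0 bp on day 0, from 173.8 to 202.5 bp on day 1 and from 174.3 to 203.8 bp on day 2. The SD within an array was 5 bp or less in 166 of 8380, 178 of 10177 and 165 of 9263 arrays. How many shuffled runs were as even was not counted. The longest array of all had 14 positions on day 0 at chr2:167784868-167787523, 94436 bp from the nearest protein-coding gene, Cebpb, which encodes a transcription factor. Its distances averaged 193 bp with an SD of 20.97 bp. The same span held 14 positions on day 1 and 13 on day 2, none of them in an array. A span full of positions on each day was thus an array on 1 day.

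The other longest arrays were likewise seen on 1 day. On day 0 they were an array of 12 positions in Mybph, a myosin-binding protein gene, at chr1:134194796-134197027, and 1 of 11 at chr9:50461981-50464064, 30461 bp from Plet1. On day 1 they were an array of 13 in Slc25a45, a gene of the mitochondrial carrier family, at chr19:5884381-5886836, 1 of 13 in Pwwp3a at chr10:80240781-80243141 and 1 of 12 at chr7:80553586-80555871, 18438 bp from the helicase gene Blm. On day 2 they were an array of 12 at chr2:31147881-31149941, 2161 bp from Gpr107, 1 of 11 at chr7:141452369-141454366, 822 bp from the lipase gene Pnpla2, and 1 of 11 in Kansl1, a subunit gene of a histone acetyltransferase complex, at chr11:104441436-104443446. In 8 of these 9 spans neither other day had an array position, although 5 to 14 positions were listed there. The exception was Kansl1, where 2 of 11 day 1 positions belonged to an array.

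Array positions had higher summit values than other positions of their library. The mean summit value was 9.02 in arrays on day 0, against 8.22 in shorter runs of 2 to 4 positions and 7.53 outside any run. On day 1 the means were 8.88, 7.93 and 7.01, and on day 2 they were 7.87, 7.07 and 6.46. The median of array positions exceeded that of all other positions by 0.762, 1.62 and 1.25 on days 0, 1 and 2, with an SD over 19 autosomes of 0.463, 0.193 and 0.197, and was higher on 19 of 19 autosomes on each day. On day 0 that difference equals 1 step of the summit scale. Inside classes of local density the mean stayed higher in arrays, by 0.421, 0.651 and 0.435 in bins with 400 or more positions and by 0.752, 2.13 and 1.06 in bins with under 100. Within an array, inner positions had higher means than the 2 at its ends, 9.14 against 8.82 on day 0, 9.05 against 8.58 on day 1 and 7.99 against 7.65 on day 2.

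Fuzziness, the authors' score of how widely the reads of a position spread around its centre, differed in a direction that turned with density. Over all positions the median score was higher in arrays than elsewhere by 1.17, 0.566 and 1.22, on 19 of 19 autosomes on each day, and the means were 51.7, 54.8 and 51.8 in arrays, against 50.5, 54.1 and 50.5 elsewhere. In bins with 400 or more positions the means were lower in arrays, at 52.5 against 53.3 on day 0, 55.2 against 56.0 on day 1 and 52.5 against 53.4 on day 2. In bins with under 100 positions they were higher in arrays, at 48.3 against 46.4, 54.3 against 51.2 and 49.7 against 47.4. In bins with 300 to under 400 positions, which held 35%, 31.5% and 38.2% of the arrays, the means were also lower in arrays, at 51.5 against 51.8, 54.6 against 55.0 and 51.7 against 52.1. In these 2 densest classes array positions thus had the narrower read spread, and the pooled difference had the opposite sign. Inner positions of arrays had lower scores than end positions, 51.5 against 52.1 on day 0, 54.6 against 55.1 on day 1 and 51.6 against 52.2 on day 2.

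Arrays lay in gene-rich parts of the genome. Where no more than 1 protein-coding gene lay in the 1 Mb around a 100 kb bin, 0.0921%, 0.215% and 0.138% of positions were in arrays on days 0, 1 and 2, and in bins with 22 or more genes 2.39%, 3.33% and 2.21%. Gene-poor bins held 0.440%, 0.523% and 1.35% of array positions, against 5.89%, 4.62% and 11.2% of other positions, and the array share was the lower on 19 of 19 autosomes. The median number of positions per 100 kb around these positions moved with gene number, at 50, 28 and 84 in the gene-poor bins and 413, 409 and 391 in the gene-rich ones. The part of position density in the gene-density pattern was not tested.

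**Figure D4:**
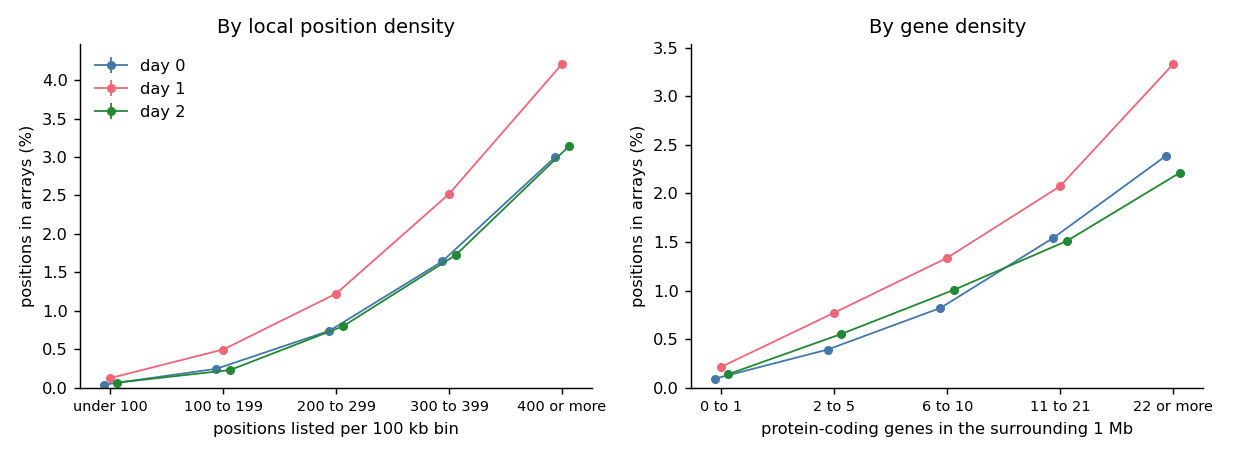
Percent of positions that belong to an array on days 0, 1 and 2, by the number of positions in the 100 kb bin (left) and by the number of protein-coding genes in the surrounding 1 Mb (right). Error bars are exact 95% intervals and are mostly smaller than the points. The share goes up in each class, to 3.0%, 4.21% and 3.14% in the densest bins.

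Protein-coding genes held 62.4%, 63.5% and 60.7% of array positions, against 54.6%, 56.8% and 50.6% of other positions, higher on 19 of 19 autosomes on each day, and genes make up 39.9% of the autosome length. Within classes of local density the comparison took no single direction. In bins with 400 or more positions, 2.99%, 4.26% and 3.10% of positions inside genes were in arrays, against 3.02%, 4.13% and 3.21% outside genes. In bins with 300 to under 400 positions the shares were 1.61%, 2.55% and 1.71% inside genes, against 1.70%, 2.47% and 1.75% outside. In bins with 200 to under 300 positions they were 0.781%, 1.22% and 0.851% inside genes, against 0.686%, 1.23% and 0.732% outside. In bins with 100 to under 200 positions they were 0.278%, 0.542% and 0.262%, against 0.217%, 0.444% and 0.207%, higher inside genes on each day. In bins with under 100 positions they were 0.0555%, 0.175% and 0.0354%, against 0.0312%, 0.0965% and 0.0760%, higher inside genes on days 0 and 1 and lower on day 2.

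Array positions lay near gene ends more often than other positions. Within 1000 bp of a gene end lay 10.4%, 12.9% and 11.4% of array positions, against 5.55%, 6.69% and 5.06% of other positions, on 19 of 19 autosomes. In the 1000 bp downstream of a start site, counted over 20063 start sites on 18 autosomes because start sites of chromosome 18 were not used here, lay 3.596%, 4.97% and 4.08% of array positions, against 1.59%, 2.08% and 1.49% of other positions. Upstream, over the same length, the shares were 2.20%, 2.78% and 3.09%, against 1.21%, 1.49% and 1.16%. In the densest bins, 4.42% (4.14 to 4.71%), 6.69% (6.35 to 7.05%) and 4.54% (4.25 to 4.85%) of the positions downstream of start sites were in arrays, against 2.96%, 4.14% and 3.10% of the other positions there. The share downstream of start sites was also the higher in each sparser class on each day, with 1 exception. In bins with under 100 positions on day 0, none of 2568 downstream positions was in an array (up to 0.144%), against 0.0392% of the others. Gene ends were not split by density.

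Around start sites, the window with the highest share of positions in arrays lay inside the gene on each day, though on day 2 its interval overlapped those of upstream windows. From 500 to below 1000 bp downstream, 3.13% (2.92 to 3.34%), 5.04% (4.78 to 5.32%) and 3.31% (3.11 to 3.53%) of positions were in arrays. In the 100 bp across the start site the shares were 2.36%, 2.92% and 2.76%, and between 2000 and 1000 bp upstream 2.03%, 3.39% and 2.53%. Between 1000 and 500 bp upstream they were 2.16%, 3.68% and 3.09%, and the day 2 interval there, 2.87 to 3.31%, overlaps that of the window inside the gene. On day 1 the share went up and down with a step near the array spacing. In 50 bp steps it was 5.72% at 450, 6.51% at 650 and 6.42% at 850 bp, against 3.74% at 550, 4.06% at 750 and 3.93% at 950 bp. Day 0 had 3.27%, 3.84% and 4.20% at the first places and 2.73%, 2.93% and 2.83% at the second. Day 2 had 3.63%, 4.21% and 3.75%, against 2.90%, 3.16% and 2.79%. The 3 libraries showed local maxima at the same 3 places, which were picked after the profile was seen. On day 2 single steps upstream were as high, at 3.92% in the step from -150 bp and 3.88% in that from -350 bp. Over the 3 maxima 3.75% (3.36 to 4.17%), 6.18% (5.69 to 6.69%) and 3.86% (3.48 to 4.26%) of positions were in arrays. Over the steps from 550, 750 and 950 bp the shares were 2.83% (2.47 to 3.23%), 3.90% (3.48 to 4.37%) and 2.94% (2.59 to 3.33%). These low steps were picked in the same way, the last lies beyond the third maximum, and the intervals do not allow for the choice. Steps left out were 5.27% at 600 and 6.24% at 800 bp on day 1. On day 2 the step from 600 bp, at 2.58%, was below that from 550 bp. All listed positions, in arrays or not, also had maxima downstream of start sites, the first within 150 bp of the start.

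**Figure D5:**
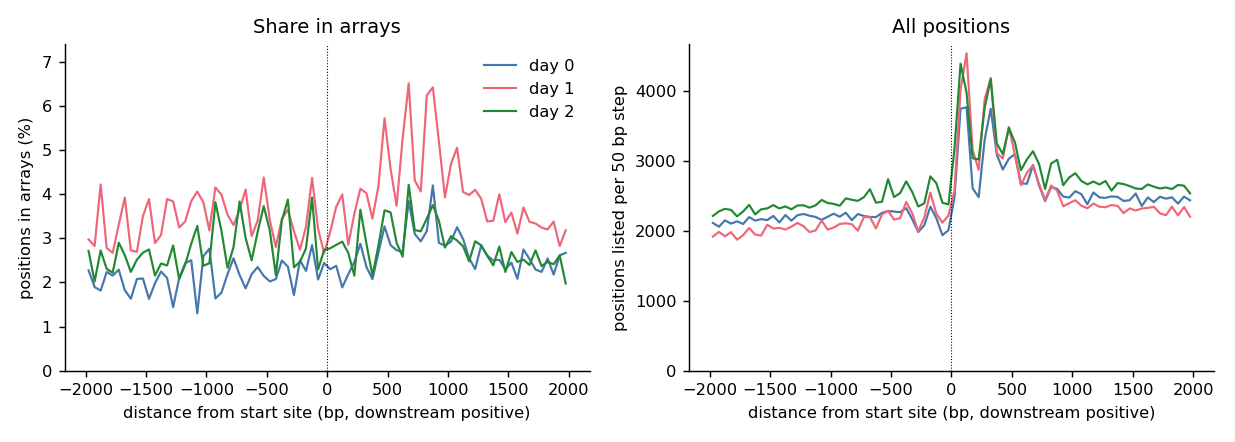
Left: percent of positions in arrays by distance from the start site, in 50 bp steps from 2000 bp upstream to 2000 bp downstream, on days 0, 1 and 2. Right: number of all listed positions in the same steps. The day 1 line reaches 6.51% in the step from 650 bp, and all 3 lines have maxima in the steps from 450, 650 and 850 bp.

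Promoter windows crossed by an array were richer in GC than promoters in general. Windows ran from 250 bases before to 50 after the start site, with 20085 windows of 16457 genes. Arrays crossed 1.61%, 2.66% and 2.36% of them on days 0, 1 and 2. Their median GC share was 61.0%, 63.3% and 62.0%, against 57.0% for all windows and 60.7% for windows with a listed centre on each day but no array. The GC box GGGCGG, searched on both strands, was found in 60.5%, 63.9% and 65.6% of crossed windows, against 47.0% of all windows and 54.4% of those with centres but no array. TATAAA was found in 5.86%, 5.62% and 7.38%, against 12.7% of all windows, and AGATAA, which erythroid GATA factors can bind, in 7.10%, 4.87% and 5.06%, against 9.57%. Windows with centres but no array held TATAAA in 7.20% and AGATAA in 6.63%, which lies within the range of the crossed windows for both motifs. These matches describe letters in the windows and show no binding.

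Arrays seldom lay at the same place on different days. Of the day 1 arrays, 4.16% overlapped a day 0 array by at least 1 bp, and 4.99% of day 0 arrays overlapped a day 1 array. Between day 2 and day 1 the shares were 4.74% of day 2 arrays and 4.33% of day 1 arrays, and between day 2 and day 0 they were 3.14% and 3.44%. Arrays that overlapped one on both other days numbered 24 on day 0, 22 on day 1 and 24 on day 2, which is 0.286%, 0.216% and 0.259%. Array positions lay within the span of another day's array 2.31 to 3.05 times as often as positions outside arrays did. In bins with 400 or more positions that ratio was between 1.21 and 1.43 over the 6 ordered pairs of days, so it was above 1 in every pair and smaller at equal density.

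Where arrays of different days did overlap, offsets between their centres were most frequent near 0, though most centres lay more than 20 bp apart. Of array positions inside another day's array, 36.1% to 40.3% lay within 20 bp of one of its centres, and 17.6% to 21.3% lay in the wider range of 61 to 100 bp away. The median offset was 30 to 35 bp, and no shifted share was made for these positions. Over all array positions, whether or not the other day had an array there, 23.0% of day 1 positions had a listed day 0 centre within 20 bp, against 17.5% at a shift of 1000 bp. For day 2 positions the shares were 22.3% with day 1, against 16.2%, and 20.6% with day 0, against 15.7%. The ratio of unshifted to shifted share was between 1.31 and 1.38 for array positions and between 1.30 and 1.34 for other positions over the 6 ordered pairs. Array positions thus recurred on another day about as far above the shifted level as other positions did.

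Most array spans held positions on the other days too, but fewer. Counted from first to last centre, the other library had 0.630 to 0.720 times as many positions in the span, the same number in 12.4% to 16.7% of arrays and none in 0.658% to 4.62%. Fewer positions than in the array itself were listed in 79.6% to 85.3%. Since the arrays were chosen for a full row on their own day, a lower number elsewhere follows in part from the choice.

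A centre of an array within 20 bp of an array centre on both other days was found at 8 places. At 7 of them 1 centre was shared, and at Cc2d1a 2 neighbouring centres were, at 84147111 and 84147276 bp of chromosome 8. Cc2d1a encodes a C2 domain protein, and its day 0 array lay at chr8:84146496-84147346, with arrays of 5, 10 and 6 positions on days 0, 1 and 2. The others lay in or across Cplx3 and its neighbour Lman1l (9, 5 and 5 positions), Nfix, a nuclear factor I gene (5, 5 and 5), Zfp653 (5, 5 and 5), Ndor1 and Tmem203 (5, 6 and 6), Caskin1 (6, 5 and 9), Mideas (9, 6 and 5) and Dnttip1 (5, 6 and 5). Mideas and Dnttip1 encode components of a histone deacetylase complex. Mean summit values of these arrays ran from 6.80 at Dnttip1 on day 1 to 13.4 at Zfp653 on day 0.

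Of 20560 protein-coding genes on the autosomes, 3910 (19%) held at least 1 array position on day 0, 4485 (21.8%) on day 1 and 4211 (20.5%) on day 2. Arrays were found on all 3 days in 1036 genes (5.04%) and on no day in 12413 (60.4%). Pooled over genes, 1.39%, 2.09% and 1.37% of positions in genes belonged to arrays, and the median gene had 0% on each day. Longer genes had an array more often, in 31.7%, 29.97% and 37.4% of genes of 100 kb or more and in 7.91%, 10.8% and 7.93% of genes under 10 kb. Their positions were less often in arrays, at 0.810%, 1.196% and 0.834%, against 3.005%, 4.35% and 2.78% in genes under 10 kb.

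Genes with the largest share of positions in arrays, among those with at least 50 positions, changed with the day. Zbtb7b, a transcription factor of T cell fate, led on day 0 with 28, 0 and 11 array positions among 86, 88 and 83 listed on days 0, 1 and 2. Plk5 (28.0% on day 0), Telo2 (25%), Trmu (24.6%) and Sp6 (24.0%) followed. Rasip1 led on day 1 with 5, 19 and 0 array positions among 58, 58 and 56, ahead of, among others, Rgp1 (32.0%), Ube2q1 (31.4%) and Gucd1 (31.1%). Gpr153, an orphan receptor gene, led on day 2 with 0, 10 and 16 among 52, 60 and 54, ahead of Mta2, a subunit of the NuRD remodelling complex (28.6%), Ap5b1 (26.3%), Acyp1 (24.0%) and Abcg4 (23.1%).

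By a rule of size, a share of positions in arrays at least 2 times as high or as low in genes with at least 30 positions on both days, many genes moved each way. On day 1, 2567 of 11915 genes (21.5%) were higher than on day 0 and 1945 (16.3%) lower. On day 2, 2156 of 12006 genes (18%) were higher than on day 1 and 2485 (20.7%) lower, and 2449 of 12487 genes (19.6%) were higher than on day 0 and 2152 (17.2%) lower. Most of these had no array position on 1 of the days, as 2201 of the 2567 higher on day 1 had none on day 0. From day 0 to day 2 the largest increases were at Gpr153, Acyp1, the sterol transporter gene Abcg4, its neighbour Nlrx1 and the translation factor gene Eif4g2, with 16, 18, 18, 17 and 13 array positions on day 2, against 0 at each on day 0. The largest decreases were at Telo2, Trmu, the syntaxin gene Stx4a, Ace3 and the chaperone gene Bag6, with 0 on day 2, against 20, 16, 12, 12 and 13 on day 0. Each of these 10 genes had 50 to 81 listed positions on both days, such as Acyp1 with 75 on day 2 and 72 on day 0.

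Arrays in erythroid transcription factor genes are given beside those of all genes, with no test. Of the 17 on autosomes, 7 had an array on day 0, 13 on day 1 and 9 on day 2, beside the 19%, 21.8% and 20.5% of all genes and the 28.1%, 30.5% and 30.4% of genes of 30 to 100 kb, since their median length was 36.1 kb. Arrays held 1.67% (1.31 to 2.10%), 3.16% (2.67 to 3.70%) and 2.47% (2.05 to 2.94%) of their positions, beside 1.39%, 2.09% and 1.37% over all genes, and the day 0 interval includes the value of all genes. Runx1, a regulator of blood formation, had 20, 39 and 34 array positions among 875, 1017 and 1003 listed. Zfpm1, the cofactor of Gata1, had 18, 5 and 21 among 273, 306 and 276. Gfi1b, a repressor needed for red cells and platelets, had 0, 5 and 10 among 65, 65 and 68. No array was found in Klf1, Myb or Tal1 on any day, and Klf1 had only 16, 16 and 14 listed positions.

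Genes of hemoglobin production differed from this in the order of days. Of 21 globin and heme genes, 6, 2 and 6 (28.6%, 9.52% and 28.6%) had an array, beside 19%, 21.8% and 20.5% of all genes. Their median length was 7.88 kb, and 7.91%, 10.8% and 7.93% of genes under 10 kb had an array. Arrays held 3.75% (2.69 to 5.07%), 0.954% (0.477 to 1.70%) and 3.42% (2.44 to 4.65%) of their positions. Day 1 was thus the lowest here, whereas it was the highest over all genes. The heme synthesis enzyme gene Alad had 5, 0 and 12 array positions, and the iron transporter Slc11a2 had 15, 6 and 5. None of the 8 listed globin genes had an array position on any day. These genes are 0.815 to 1.93 kb long and held 0 to 8 listed positions each per day, so few positions could be counted there. The other 7 members with arrays had 5 or 6 array positions on the days they had any, so 1 array more or less moves these shares.

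Red cell membrane and cytoskeleton genes carried arrays in 5, 12 and 11 of 21 members on days 0, 1 and 2, beside 19%, 21.8% and 20.5% of all genes and 28.1%, 30.5% and 30.4% of genes of 30 to 100 kb (the median length of the list was 32.996 kb), and 1.09%, 3.42% and 2.02% of their positions were in arrays. Epb41, which encodes the membrane skeleton protein 4.1, had 0, 32 and 6 array positions among 529, 519 and 578 listed, while the spectrin gene Sptb had 15, 12 and 10. Progenitor genes had arrays in 4, 10 and 8 of 17 members, whose median length was 25.2 kb, with 2.10%, 3.5% and 1.70% of positions, led by Etv6 with 25, 37 and 30 array positions. Spi1, a factor of myeloid and lymphoid cells, had 26, 11 and 5. Day 0 had the fewest genes with an array in both lists, while the share of positions was lowest on day 0 for the membrane genes and on day 2 for the progenitor genes.

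Genes of nuclear condensation and enucleation had arrays in 13, 9 and 12 of 25 members (52%, 36% and 48%), with 2.27%, 3.55% and 2.76% of positions. Arrays were found in 19%, 21.8% and 20.5% of all genes and in 20.2%, 24.9% and 21.1% of genes of 10 to 30 kb. The median length of this list was 28.8 kb. Cit, a kinase gene of cell division, had 5, 54 and 5 array positions, so 54 of the 115 day 1 array positions of the list were in 1 gene. Lmna, which encodes lamins A and C of the nuclear envelope, had 11, 17 and 17 among 154, 156 and 150. Genes of nucleosome spacing and linker histones had arrays in 8, 8 and 10 of 24 members (33.3%, 33.3% and 41.7%). Arrays were found on all days in 4 of them, beside 5.04% of all genes, a share that was not split by gene length. This was not particular to the list. The all-days count was 6 of 25 enucleation genes, 5 of 17 erythroid factor genes, 4 of 21 membrane genes and 4 of 17 progenitor genes. It was lower in others, at 2 of 27 cell cycle genes and 1 of 21 globin and heme genes. Their median length was 43.0 kb, and 28.1%, 30.5% and 30.4% of genes of 30 to 100 kb had arrays. Arrays held 1.61%, 1.80% and 1.36% of their positions, near the 1.39%, 2.09% and 1.37% over all genes. The remodeller gene Chd7 had 14, 10 and 16 array positions and Bptf 5, 15 and 5. Cell cycle genes, with a median length of 13.5 kb, had arrays in 7, 8 and 9 of 27 members (25.9%, 29.6% and 33.3%). Arrays held 1.83%, 3.76% and 2.38% of their positions, and Ccnd3, a cyclin gene, had 10, 41 and 10 array positions.

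Ribosomal protein genes had the largest share of positions in arrays among the lists on day 1. Arrays held 3.72% (2.68 to 5.01%), 7.11% (5.70 to 8.75%) and 3.99% (2.93 to 5.31%) of their positions on days 0, 1 and 2, and genes under 10 kb had 3.005%, 4.35% and 2.78%. The median length of the 68 genes was 3.17 kb, and 9, 15 and 6 of them (13.2%, 22.1% and 8.82%) held an array position. Of all genes under 10 kb, 7.91%, 10.8% and 7.93% did. Rpl5 had 5, 5 and 8 array positions among 34, 29 and 36, and Rpl36 had 2, 6 and 6 among 16, 21 and 21. Many ribosomal protein genes have near-identical processed copies elsewhere, so the assignment of reads is uncertain.

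Marker genes of other cells carried arrays in 0 to 3 members of lists of 9 to 15 genes, and the lists took no single direction. Of all genes, 19%, 21.8% and 20.5% had arrays. The median length was 13.0, 19.7 and 10.9 kb for hepatocyte, macrophage and lymphoid genes. Arrays were found in 20.2%, 24.9% and 21.1% of genes of 10 to 30 kb. For megakaryocyte and neural genes the median length was 8.25 and 9.36 kb, and 7.91%, 10.8% and 7.93% of genes under 10 kb had arrays. The 10 hepatocyte genes had none on days 0 and 1 and 1 array, in Hnf4a, on day 2, and Afp and Alb had none. Listed positions were few in Afp (24, 8 and 28) and Alb (19, 6 and 22). Arrays were found in 1, 2 and 2 of 15 macrophage genes (6.67%, 13.3% and 13.3%) and in 1, 0 and 2 of 13 lymphoid genes (7.69%, 0% and 15.4%). They were found in 3, 2 and 3 of 11 megakaryocyte genes (27.3%, 18.2% and 27.3%) and in 1, 2 and 2 of 9 neural genes (11.1%, 22.2% and 22.2%). Beside genes of like length, the hepatocyte, macrophage and lymphoid shares were lower on each day. The megakaryocyte and neural shares were higher on each day, and 1 gene more or less moves all of them. The 1099 olfactory receptor genes held arrays in 2, 3 and 1 (0.182%, 0.273% and 0.091%). Their median length was 0.951 kb, and together they held 1777, 1611 and 2896 listed positions. Few positions per gene could thus be counted there. Olfr1393, a longer member of 28.5 kb, had the most array positions, with 0, 13 and 0. Among 360 zinc finger protein genes 38, 45 and 57 (10.6%, 12.5% and 15.8%) had arrays, led by Zfp704, and 97 on any day. Their median length was 18.1 kb, and the shares lay below those of genes of 10 to 30 kb on each day.

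Protocadherin genes, neuronal adhesion genes of which many overlap in clusters on chromosome 18, had arrays in 0, 19 and 14 of 57 members. Nested members share positions there, as Pcdhga1 and Pcdhga2 both had 0, 6 and 5 array positions, so these counts stand for few separate arrays. Of all genes, 19%, 21.8% and 20.5% had arrays. The replication-dependent histone genes, which are short near-identical copies with a median length of 0.491 kb, had arrays in 1, 0 and 2 of 62 members. Of all genes under 10 kb, 7.91%, 10.8% and 7.93% had arrays.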

How the data were processed

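Nucleosome positions of 3 libraries, 1 per culture day, were deposited as 1 list each. The submitters' processing notes name Bowtie2, bedtools and the genome build mm10. Versions and the position caller: not given in the sources used here. Per the file headers, the authors deposited for each position a summit value, a smoothed coverage signal that they scaled, a fuzziness score of unstated unit, and p-values for both, which were not used. The depth in reads is unknown, and the number of positions sets the precision of the shares. All positions are 140 bp wide.

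Neighbour distances were taken between sorted centres of each autosome and runs of 5 or more positions at 160 to 220 bp were kept. Distances were shuffled 20 times with fixed seeds, within chromosomes or within blocks of 1000 or 100. Recovery of planted arrays was tested on simulated data. Gene ends, start sites and promoter sequence came from RefSeq tables of GRCm38.p6, and genes that start below 3 Mb were left out. The table of promoters gave no start site of chromosome 18. Exons and introns were not used here. Local density was counted in bins of 100 kb. Recurrence between days used centres within 20 bp, beside a shift of 1000 bp. Errors are SDs over autosomes or shuffles or exact Clopper-Pearson 95% intervals, and none covers the spread between cultures.

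The arrays, gene lists and comparisons were chosen with earlier results of these data known. Named genes follow a rule: the 3 longest arrays per library, places shared by all days (10 were sought and 8 exist), the 5 genes with the largest share per library among genes with at least 50 positions, the 5 largest increases and decreases from day 0 to 2, and 2 members per list with the most array positions. Some genes that this rule names are not reported here. The density classes, the correlation and spread of successive distances, the windows around start sites, the promoter motifs and promoters crossed on all days, and Gfi1b, Klf1, Myb, Tal1 and Alb among the list members were chosen after values were seen. Alternatives changed the bounds, the least number of positions, the positions used, the shuffle, and the windows for gene ends and recurrence. Python 3.11.15 with numpy 2.4.6, pandas 2.3.3, scipy 1.17.1 and matplotlib 3.10.9 was used.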

Additional observations from a re-analysis of the deposited data

Results flagged for a closer look

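Chromosome X lay outside the autosomes to which the rule was applied, and arrays were also found there. It held 12 arrays among 45232 positions on day 0, 25 among 30972 on day 1 and 20 among 88409 on day 2. There were no control samples, and no shuffled number was made for chromosome X. Arrays were fewer per position there than on the autosomes, which held 8380 among 3689577 positions, 10177 among 2967550 and 9263 among 4382151. They were more per position than in the autosomal bins with under 100 positions. Those bins held 35 arrays among 465702 positions, 113 among 474446 and 79 among 623304. Chromosome X and the autosomes were not matched for local density, and its part in the difference was not tested. Per position, day 1 was the highest, as on the autosomes, and whether the days differ on chromosome X was not tested.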

How the results depend on the processing

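Each result has 1 library per day, so no replicate could be left out. No paired analysis was possible because each group holds 1 library and the days share no replicate numbers. Of 297 values recomputed under other settings, 88 stayed within the spread (1 SD over autosomes, the 95% interval of a share, or 1.5 times for a count), 208 moved beyond it and 1 reversed. The reversal was the ratio of listed to shuffled arrays on day 0, which was 1.39 for whole chromosomes and 0.971 in blocks of 100 distances. In every other setting in which they were computed the ratios were above 1 and day 1 had the largest share of positions in arrays. Summit and fuzziness differences were recomputed under the 6 changes of distances, least number of positions and positions used, and stayed above 0 in these. The day with the most arrays changed, since day 2 had more than day 1 with a least number of 4 positions and without distances of exactly 160 and 220 bp. The number of arrays followed the bounds and the least number of positions, as the rule's construction requires. At equal list length day 1 had more than 2 times as many arrays as either other day. That length is the length of the day 1 list, so only the other lists lost positions, those of lowest summit value. A lost position can break a run, so this setting does not treat the days alike. Leaving out 1 autosome, run for the number of arrays and the ratio alone, changed neither by more than 1.5 times. The position density, the unknown read numbers and the 5 bp grid limit what can be compared between days.

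Where a value moved on any day or pair of days, all days or pairs are given, also those that stayed within the spread. They run as days 0, 1 and 2, and for recurrence as day 0 in 1, 0 in 2, 1 in 0, 1 in 2, 2 in 0 and 2 in 1. Distances from 150 to 230 bp gave 22615, 24377 and 24238 arrays, ratios to the shuffled number of 1.35, 1.44 and 1.47, and 3.404, 4.63 and 3.07% of positions in arrays. It also gave median distances of 186, 185 and 188 bp, fuzziness differences of 1.52, 0.849 and 1.60, and 62.7, 62.8 and 61.3% of array positions in genes. The setting further gave 9.66, 12.2 and 10.7% near gene ends, 0.566, 0.507 and 1.29% in gene-poor bins, and overlaps of 10.2, 8.46, 9.62, 10.6, 7.93 and 10.6%. There were also shared centres of 20.96, 21.2, 22.6, 23.7, 20.3 and 21.9%. Distances from 170 to 210 bp gave 2054, 2819 and 2371 arrays, ratios to the shuffled number of 1.45, 1.65 and 1.75, and 0.290, 0.502 and 0.283% of positions in arrays. It also gave median distances of 190, 190 and 190 bp, fuzziness differences of 0.814, 0.320 and 0.847, and 61.6, 62.7 and 62.0% of array positions in genes. The setting further gave 11.3, 13.0 and 11.7% near gene ends, 0.327, 0.255 and 1.31% in gene-poor bins, and overlaps of 1.51, 0.779, 1.10, 1.17, 0.675 and 1.39%. There were also shared centres of 22.4, 21.9, 23.2, 24.3, 20.5 and 23.1%. A least number of 4 positions gave 32603, 34725 and 35373 arrays, ratios to the shuffled number of 1.16, 1.23 and 1.23, and 3.85, 5.18 and 3.52% of positions in arrays. It also gave 61.8, 62.9 and 59.8% of array positions in genes, 9.16, 11.5 and 9.87% near gene ends, and 0.757, 0.749 and 2.19% in gene-poor bins. The setting further gave overlaps of 9.69, 7.96, 9.16, 9.61, 7.35 and 9.39%, and shared centres of 20.3, 20.4, 22.1, 23.5, 19.3 and 20.8%. From another draw of 20 shuffles than the 2.59, 3.71 and 4.09 given above, a least number of 8 positions gave 172, 325 and 210 arrays, ratios to the shuffled number of 2.77, 3.64 and 3.98, and 0.0397, 0.0926 and 0.0403% of positions in arrays. It also gave median distances of 188, 185 and 188 bp, summit differences of 1.52, 1.94 and 1.25, and 67.8, 69.1 and 58.4% of array positions in genes. The setting further gave 11.2, 16.1 and 14.4% near gene ends, 0.615, 0 and 0.453% in gene-poor bins, and overlaps of 1.74, 0, 0.923, 0.308, 0 and 0.476%. There were also shared centres of 23.9, 24.2, 23.3, 25.7, 21.6 and 24.5%. A least summit value of 10 gave 180, 455 and 102 arrays, ratios to the shuffled number of 2.01, 1.54 and 3.28, and 0.169, 0.616 and 0.139% of positions in arrays. It also gave summit differences of 0.918, 1.85 and 2.35, fuzziness differences of 1.97, 1.24 and 3.55, and 66.7, 76.2 and 55.7% of array positions in genes. The setting further gave 21.05, 27.7 and 23.6% near gene ends, 0.641, 0.412 and 0% in gene-poor bins, and overlaps of 3.33, 0, 1.32, 0.879, 0 and 3.92%. There were also shared centres of 14.2, 13.6, 13.4, 11.2, 17.6 and 16.9%. Keeping the 2967550 positions of highest summit value in each library gave 4979, 10177 and 4428 arrays, ratios to the shuffled number of 1.54, 1.54 and 1.82, and 0.897, 1.87 and 0.799% of positions in arrays. It also gave summit differences of 1.52, 1.62 and 1.25, 63.3, 63.5 and 62.2% of array positions in genes, and 11.8, 12.9 and 14.4% near gene ends. The setting further gave 0.255, 0.523 and 0.515% in gene-poor bins, overlaps of 5.82, 2.55, 2.86, 2.63, 2.87 and 6.01%, and shared centres of 23.9, 19.8, 20.9, 20.7, 20.8 and 25.4%. Leaving out distances of exactly 160 and 220 bp, an alternative chosen after seeing the data, gave 5333, 5653 and 5917 arrays, and 0.767, 1.02 and 0.719% of positions in arrays. Shuffling in blocks of 1000 gave ratios to the shuffled number of 1.01, 1.15 and 1.12. Shuffling in blocks of 100 gave ratios to the shuffled number of 0.971, 1.04 and 1.03. A window of 500 bp at gene ends gave 5.14, 6.41 and 5.81% near gene ends. A window of 2000 bp at gene ends gave 19.1, 22.2 and 19.6% near gene ends. A limit of 10 bp gave shared centres of 12.6, 12.5, 13.2, 13.8, 11.98 and 12.9%. A limit of 40 bp gave shared centres of 38.6, 38.7, 40.9, 42.7, 36.7 and 39.2%. Asking for an overlap of at least 50% of the shorter array gave overlaps of 3.10, 2.05, 2.55, 2.68, 1.86 and 2.95%. The cause of these moves was not tested.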
